A study of Mus musculus with 6 samples.

Results

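The genes described here are the liver genes of NAD synthesis and clearance and the sirtuins that use NAD, 10 of the 23631 genes in the deposited table: Nampt, Nadsyn1, Nmnat1, Qprt, Nnmt, Sirt1, Sirt3, Sirt4, Sirt5 and Sirt6. They were taken by gene symbol, with 1 row each, and all 10 passed the filter on low counts. RNA sequencing was done on livers of male mice of the inbred strain C57BL/6J, in 3 libraries from mice fasted for 48 h and 3 libraries from mice labelled refed. The age of the mice, the number of mice behind a library and the hour of collection are not stated in the labels. The treatment notes call the fed mice normally fed while the sample names call them refed, so a fast before the feeding is not settled for that group.

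NAD carries electrons through fuel oxidation and is also cut up by enzymes that use it as a substrate. Liver makes it from tryptophan by the de novo (kynurenine) route, which ends at Qprt, from nicotinic acid by the Preiss-Handler route, and from nicotinamide by salvage, whose rate-limiting enzyme is Nampt. The routes meet at the Nmnat enzymes, which add adenylate, and Nadsyn1 amidates the product of the de novo and Preiss-Handler routes to NAD. Sirtuins remove acyl groups from proteins while they split NAD and release nicotinamide, which Nampt returns to NAD and which Nnmt methylates for disposal. Sirt1 and Sirt6 are known as nuclear sirtuins, and Sirt3, Sirt4 and Sirt5 as mitochondrial ones.

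Total counts were 34170489 to 36026753 in fasted and 29574528 to 32988426 in refed libraries. The first principal component of log2 expression separated the groups. Fasted replicate 3 stood apart from fasted replicates 1 and 2 on the second, which held 9.29% of the variance, and its counts differed from theirs by a chi-square per gene of 214 and 192, against 32.6 between fasted replicates 1 and 2 and 24.5 to 44.5 among refed libraries. Markers of hepatocytes summed to between 104705 and 116436 CPM, counts scaled to a common library size, in fasted livers and between 87227 and 105108 CPM in refed livers, in keeping with the labelled tissue.

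Nnmt, Sirt1 and Nadsyn1 rose in fasted livers, and Sirt4, Nmnat1 and Qprt fell. Nampt, Sirt3, Sirt5 and Sirt6 did not pass the test. Calls rest on an adjusted p under 0.05, from edgeR's quasi-likelihood test adjusted by Benjamini-Hochberg across all 13248 tested genes. By this rule 6 of the 10 genes changed, 3 up and 3 down. Over all tested genes 59.4% were called, 29.2% higher and 30.2% lower in fasted than in refed livers. The share of changed members was thus near that of the whole table. The 3 fasted libraries lay all above the 3 refed ones for 4 members and all below for 4, while over all tested genes such separation held in 67.2%, with 32.8% above and 34.4% below. The median log2 fold change of the members was -0.11, beside -0.00039 over all tested genes. Nothing tells the samples' origin from separate animals, so p-values measure only the spread between these libraries, which may be technical.

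**Figure D1:**
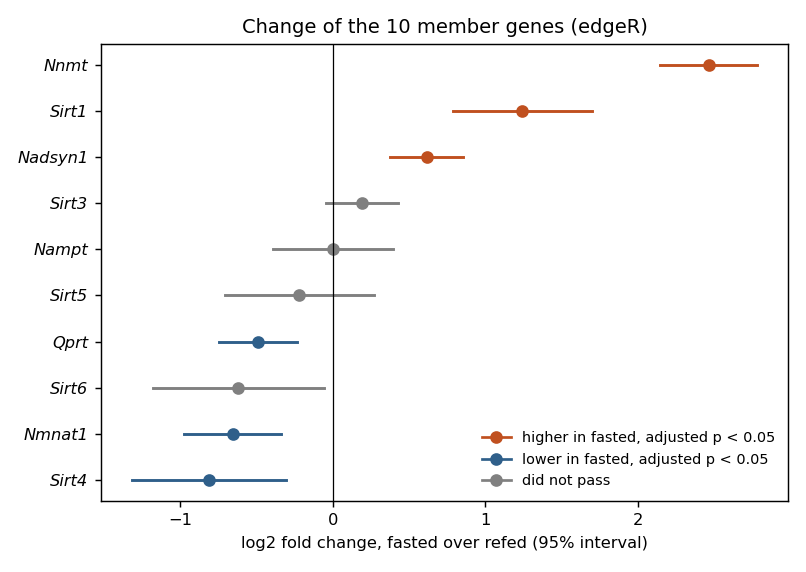
Log2 fold change of each of the 10 genes, fasted over refed, on the horizontal axis, with its 95% interval from edgeR's quasi-likelihood fit (3 libraries per group). Nnmt stands at 2.46 and Sirt1 at 1.24, while the interval of Nampt runs from -0.39 to 0.39 around its point at zero.

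Nnmt, nicotinamide N-methyltransferase, uses S-adenosylmethionine to methylate nicotinamide and so takes it out of the salvage cycle. It lies on chromosome 9 from 48399982 to 48413258 (ENSMUSG00000032271, build mm9, as are all gene positions of the deposited table given here), and the table lists no other gene there. Its level was 529, 589.7 and 557 CPM in fasted livers, against 105, 90.7 and 109 CPM in refed livers. Each fasted library was thus far above each refed one, and fasted replicate 3 lay within the range of the other fasted libraries. Nnmt averaged 559 ± 30.4 CPM in fasted and 101 ± 9.5 CPM in refed livers (SD, n = 3 each), a 5.50-fold rise (log2 fold change 2.46, SE 0.14, edgeR adjusted p = 8.33e-06). In such tissue samples a change in the cells present and a change in RNA per cell cannot be told apart. A share of 6.48% of tested genes had a larger change in either direction. The rise passed under each of the 15 alternative settings tried, with log2 fold changes from 2.25 to 2.50.

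**Figure D2:**
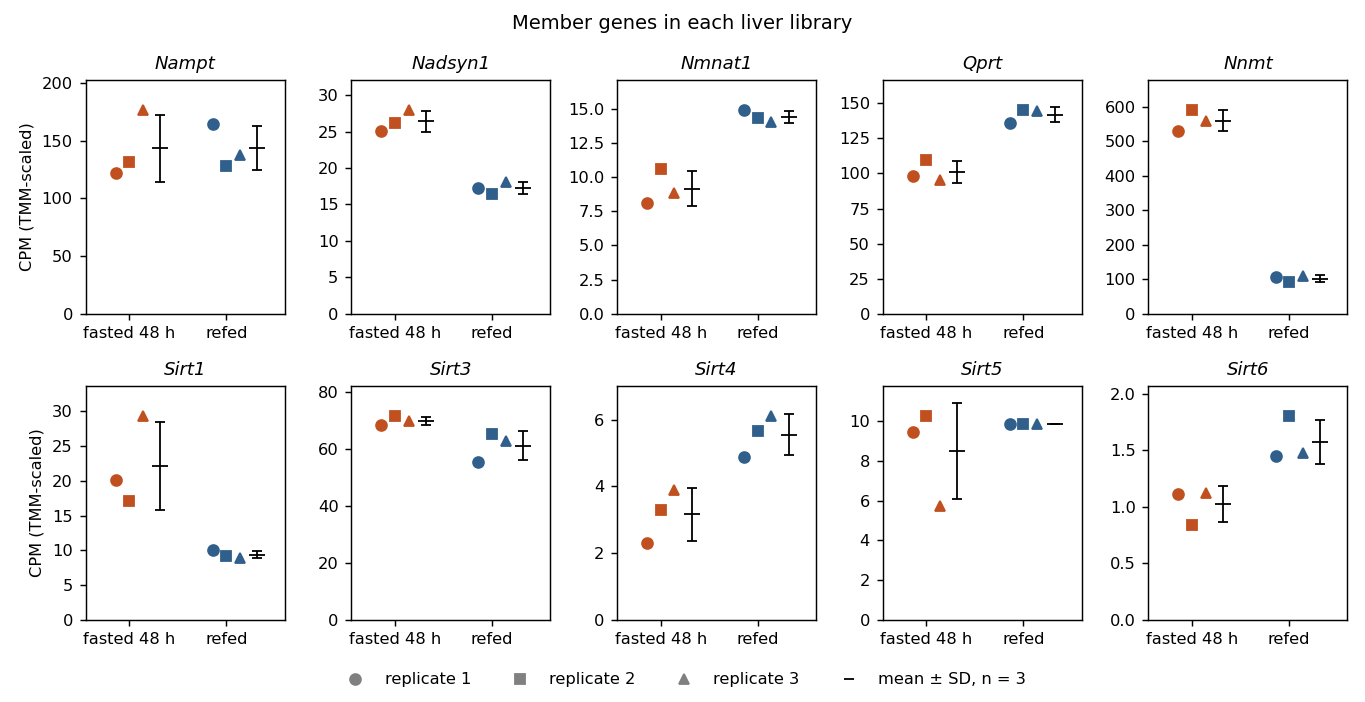
TMM-scaled CPM (vertical axis, from 0) of the 10 genes in each library, fasted for 48 h on the left and refed on the right of each panel, with replicates by marker shape and the mean ± SD beside them (n = 3). Nnmt, Sirt1, Nadsyn1 and Sirt3 are higher in each fasted library, and Nmnat1, Qprt, Sirt4 and Sirt6 are lower in each. Fasted replicate 3 is the highest fasted library for Nampt and Sirt1 and the lowest for Sirt5.

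Nampt, nicotinamide phosphoribosyltransferase, lies on chromosome 12 from 33505200 to 33538234 (ENSMUSG00000020572). It had 122, 132 and 177 CPM in fasted livers, against 165, 128 and 137 CPM in refed livers. The groups overlapped, and fasted replicate 3 was the highest of the 6 libraries while fasted replicate 1 was the lowest. The means were 143 ± 29.1 CPM in fasted and 144 ± 19 CPM in refed livers (SD, n = 3 each; log2 fold change -0.00075, SE 0.17, 95% interval -0.39 to 0.39, edgeR adjusted p = 0.997). Without fasted replicate 3 the log2 fold change was -0.17 (edgeR adjusted p = 0.249, with 0.249 to 1.0 as the span over the 15 alternatives), and its sign turned in 4 of them. In fasted replicate 3, markers of neutrophils and monocytes (10 genes, of which 3 were tested) summed to 182 CPM, against 1.29 and 2.48 CPM in fasted replicates 1 and 2 and 1.02 to 1.86 CPM in refed libraries. Of those 3 markers, 1 rose and 0 fell, and their part in the Nampt values was not tested. The lincRNA gene Gdap10 overlaps Nampt, with 1.71% as many counts.

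Within a library, the ratio of Nnmt to Nampt counts needs no scaling between libraries. This ratio was 4.33, 4.47 and 3.16 in fasted livers, against 0.636, 0.706 and 0.792 in refed livers. Counts of the methyltransferase thus exceeded those of the salvage enzyme in each fasted library and stayed under them in each refed one. The ratio was 5.56-fold higher in fasted livers (exact two-sided permutation test over the libraries, p = 0.1, the smallest p that 3 against 3 allows). It depends on both genes' lengths, so its size within a library does not compare numbers of transcripts.

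Nmnat1, the nuclear adenylyltransferase that completes NAD from its mononucleotide, lies on chromosome 4 from 148841681 to 148859311 (ENSMUSG00000028992) and is overlapped by the antisense gene Gm13097, with 4 counts in all libraries together. Nmnat1 was at 8.10, 10.6 and 8.83 CPM in fasted livers, against 14.9, 14.3 and 14 CPM in refed livers. The groups did not overlap. It fell to 9.17 ± 1.28 CPM in fasted livers, against 14.4 ± 0.437 CPM in refed livers (SD, n = 3 each; log2 fold change -0.65, SE 0.14, edgeR adjusted p = 0.00383).

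Nadsyn1, NAD synthetase, catalyses the last step for the tryptophan and nicotinic acid routes. It lies on chromosome 7 from 150981489 to 151008754 (ENSMUSG00000031090). Its values were 25.1, 26.2 and 27.9 CPM in fasted livers, against 17.2, 16.5 and 18.1 CPM in refed livers, with no overlap. Its mean was 26.4 ± 1.43 CPM in fasted and 17.3 ± 0.827 CPM in refed livers (SD, n = 3 each; log2 fold change 0.61, SE 0.10, edgeR adjusted p = 0.00132), a 1.53-fold rise.

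Qprt, quinolinate phosphoribosyltransferase, commits the tryptophan route to NAD. It lies on the same chromosome from 134250628 to 134265740 (ENSMUSG00000030674). Libraries of fasted livers had 98.3, 109.9 and 95.3 CPM, against 136, 145 and 145 CPM in refed livers, again without overlap. It averaged 101 ± 7.71 CPM in fasted and 142 ± 5.06 CPM in refed livers (SD, n = 3 each; log2 fold change -0.49, SE 0.11, edgeR adjusted p = 0.00563), 1.4-fold lower in fasted livers. The ratio of Nampt to Qprt counts was 1.24, 1.20 and 1.85 in fasted livers, against 1.21, 0.885 and 0.948 in refed livers. These groups overlapped (exact two-sided permutation test, p = 0.2), and the 1.39-fold difference was not separated from the spread between libraries. Nmnat1 and Qprt were the pair of members with the most similar pattern. Their Euclidean distance in log2 CPM centred over the 6 libraries was 0.295, against 0.529 for the next pair (Qprt and Sirt6). Genes outside the members lay closer than this to some members, such as Mafg to Nampt at 0.125. The distance of the pair is thus a description, and shared regulation was not tested.

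Around Qprt, genes of the tryptophan route moved in both directions. Of the 9 other genes of the route, all tested, 3 rose and 4 fell, with a median log2 fold change of -0.46. Over all tested genes 29.2% rose and 30.2% fell, and these shares stand beside the counts of each list below. Tdo2, the dioxygenase that opens the route in hepatocytes, rose to 6270.0 ± 364 CPM in fasted livers, against 1599 ± 306 CPM in refed livers (SD, n = 3 each; edgeR adjusted p = 6.97e-05). Ido2, another dioxygenase for tryptophan, fell to 14.7 ± 7.22 CPM, against 117 ± 8.31 CPM in refed livers (SD, n = 3 each; edgeR adjusted p = 0.000283). Haao, which makes the precursor of quinolinate, fell 2.34-fold (edgeR adjusted p = 0.000792). Acmsd, which diverts that precursor away from quinolinate and NAD, rose 8.19-fold, to 213 ± 72.5 CPM in fasted livers, against 26.0 ± 9.66 CPM in refed livers (SD, n = 3 each; edgeR adjusted p = 0.000249). Without fasted replicate 3 the median of this list was -0.27, and without fasted replicate 2 it was -0.62, with 2 genes higher and 5 lower.

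Of the 7 tested genes in the list of other salvage and Preiss-Handler genes, 1 rose and 4 fell, with a median log2 fold change of -0.46. Over all tested genes 59.4% were called, 29.2% higher and 30.2% lower. With 1 library left out, 3 to 5 of them fell, and the median was -0.31 without refed replicate 1. Nmrk1, the nicotinamide riboside kinase listed in the table as BC016495, fell to 14.8 ± 3.00 CPM in fasted livers, against 42.8 ± 10.9 CPM in refed livers (SD, n = 3 each; edgeR adjusted p = 0.000868). Nmnat2, an adenylyltransferase known from neurons, fell 5.37-fold but had only 48 counts in all libraries together (edgeR adjusted p = 0.00196). Nt5e, an ecto-nucleotidase, rose 1.92-fold (edgeR adjusted p = 0.0183), and this call was lost without fasted replicate 2 (edgeR adjusted p = 0.073), which left 0 of these genes higher and 5 lower. Nmrk2, the other riboside kinase, was too low to test.

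The largest rise of any listed gene was that of Slc25a47, grouped here with genes that handle finished NAD. With all libraries, the median of that list was the lowest among the lists. Of 7 tested genes for phosphorylation, redox shuttling and transport, 2 rose and 4 fell, with a median log2 fold change of -0.63. This ranking did not hold with each library left out. Without refed replicate 3 the median was -0.48, against -0.60 for the other salvage and Preiss-Handler genes. Without fasted replicate 2 it was -0.54, against -0.62 for those genes. Slc25a47, a liver-enriched carrier of the inner mitochondrial membrane, had 4389.7 ± 1503 CPM in fasted livers, against 233 ± 73.8 CPM in refed livers (SD, n = 3 each; log2 fold change 4.24, SE 0.36, edgeR adjusted p = 5.60e-05). Slc25a51, the mitochondrial NAD carrier listed as Mcart1, rose 2.81-fold to 158 ± 36.5 CPM in fasted livers, against 56.0 ± 8.59 CPM in refed livers (SD, n = 3 each; edgeR adjusted p = 0.000329). A further row of the table that is also called Mcart1 overlaps it, averaged 3.13 ± 0.681 CPM in fasted and 0.380 ± 0.0159 CPM in refed livers, and was not used. Nadk2, the mitochondrial NAD kinase listed as 1110020G09Rik, fell 2.29-fold (edgeR adjusted p = 0.000117), and Nudt13, a mitochondrial pyrophosphatase of NADH, fell 2.15-fold (edgeR adjusted p = 0.000588). Nnt also fell, but C57BL/6J mice are known to carry a deletion within this transhydrogenase gene, so its counts do not stand for a working enzyme.

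Downstream of Nnmt, Aox1 and Aox3, aldehyde oxidases known to oxidise methylated nicotinamide, fell. Mat1a, Mat2b, Ahcy and Gnmt of the methyl donor cycle rose, while Mat2a of that cycle did not pass. Cyp2e1 of the same list did not pass either, and Aox4 was not tested. In this list 4 of 8 tested genes rose and 2 fell, with a median log2 fold change of 0.71. Aox3 fell to 33.5 ± 14.9 CPM in fasted livers, against 634 ± 189 CPM in refed livers (SD, n = 3 each; edgeR adjusted p = 8.46e-05), and Aox1 fell 3.51-fold (edgeR adjusted p = 0.00306). These are close copies of each other, so the split of reads between them is uncertain. Ahcy, which clears the S-adenosylhomocysteine that methyltransferases leave, rose to 2545 ± 38.3 CPM in fasted livers, against 775 ± 14.9 CPM in refed livers (SD, n = 3 each; edgeR adjusted p = 3.30e-05). Mat2b, a regulatory subunit of S-adenosylmethionine synthetase, rose 2.45-fold (edgeR adjusted p = 4.07e-05).

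**Figure D3:**
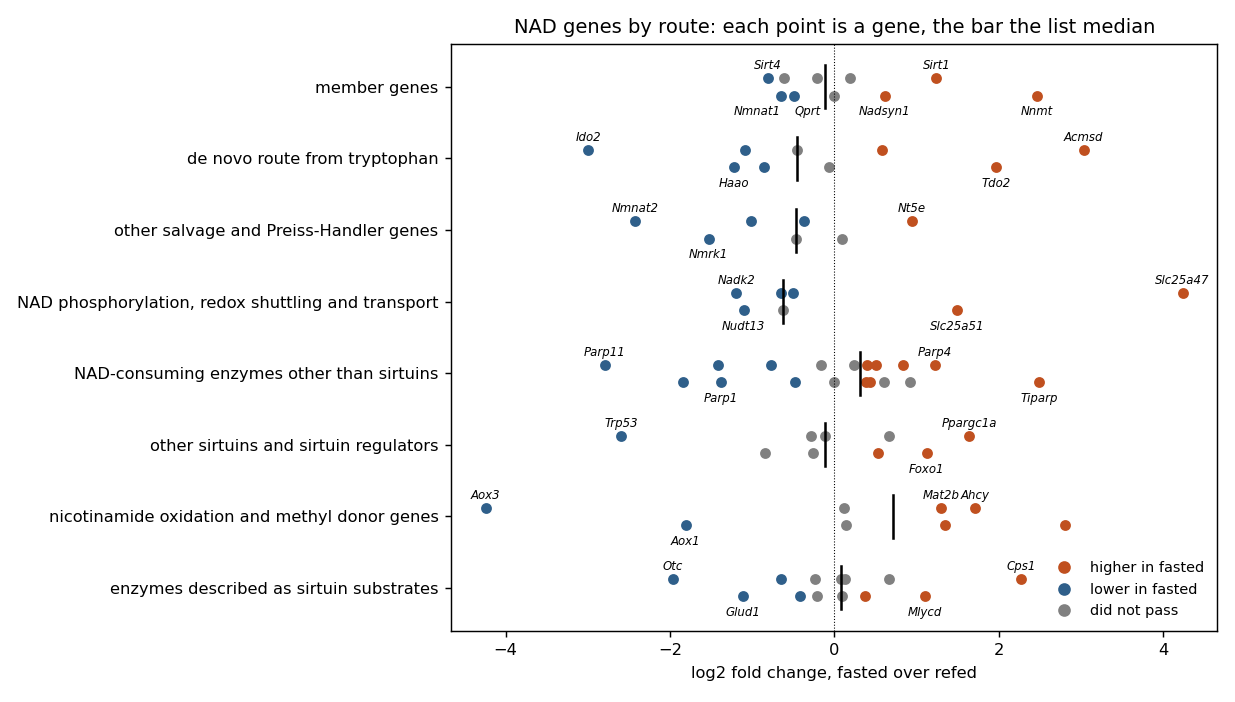
Log2 fold change, fasted over refed, of the members and of 7 lists of related genes; each point is a tested gene coloured by its edgeR call and the vertical bar is the list's median. The medians lie between -0.63 and 0.71, with single genes as far out as Slc25a47 at 4.24 and Aox3 at -4.24.

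Sirt1, the nuclear deacetylase best known in liver for acting on Ppargc1a and Foxo1 in fasting, was the sirtuin that rose. It lies on chromosome 10 from 62781753 to 62844452 (ENSMUSG00000020063), with no other listed gene there. Its level was 20.1, 17.2 and 29.3 CPM in fasted livers, against 9.99, 9.20 and 8.94 CPM in refed livers. Each fasted library was above each refed one, and fasted replicate 3 was the highest. Means were 22.2 ± 6.33 CPM in fasted and 9.38 ± 0.548 CPM in refed livers (SD, n = 3 each; log2 fold change 1.24, SE 0.20, edgeR adjusted p = 0.000964), a 2.36-fold rise. Without fasted replicate 3 the log2 fold change was 0.99 (edgeR adjusted p = 0.000112, with 2.68e-07 to 0.00721 as the span over the 15 alternatives).

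The upstream sequences of Sirt1, of Nadsyn1 (which also rose) and of Nampt (which did not pass) are shown. They let the promoter letters of a rising sirtuin be read beside those of some genes of its NAD supply. Those of Qprt and Nmnat1, which also serve NAD supply and fell, are not printed and hold no such marked letters. Each is the 250 bases before a RefSeq transcription start in build GRCm38.p6, read 5′ to 3′ on the gene's strand. Capitals mark the E-box CACGTG, letters bound by clock factors among others, and the cAMP response element half-site TGACG on either strand. Sirt1 is from chr10:63339036-63339285 (minus strand), Nadsyn1 from chr7:143822853-143823102 (minus strand) and Nampt from chr12:32820085-32820334 (plus strand).
Sirt1: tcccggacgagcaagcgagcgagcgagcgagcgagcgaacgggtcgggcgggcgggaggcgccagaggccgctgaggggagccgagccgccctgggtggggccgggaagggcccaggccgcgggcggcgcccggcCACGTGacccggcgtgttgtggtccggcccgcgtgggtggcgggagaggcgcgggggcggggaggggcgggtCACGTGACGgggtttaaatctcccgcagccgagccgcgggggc
Nadsyn1: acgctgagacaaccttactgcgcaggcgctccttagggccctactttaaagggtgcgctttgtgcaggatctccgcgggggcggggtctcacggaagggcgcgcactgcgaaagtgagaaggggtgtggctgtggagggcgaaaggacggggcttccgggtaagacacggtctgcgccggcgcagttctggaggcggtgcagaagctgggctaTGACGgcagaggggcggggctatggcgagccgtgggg
Nampt: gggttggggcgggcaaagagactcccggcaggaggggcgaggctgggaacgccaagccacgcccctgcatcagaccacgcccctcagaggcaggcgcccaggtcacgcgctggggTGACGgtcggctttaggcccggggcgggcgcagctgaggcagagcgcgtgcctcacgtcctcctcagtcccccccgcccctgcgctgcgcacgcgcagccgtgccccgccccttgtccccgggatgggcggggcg

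RefSeq promoter entries were matched for 9 of the 10 genes, and Nnmt had none. They gave 12 windows, as Nmnat1, Sirt3 and Sirt6 had a further window each. A member is counted below if any of its windows holds the letters, while percents are of single windows. The member counts and the percents are thus not on the same scale. CACGTG occurs in 6.0% of 32851 such upstream windows and, among the members, only in that of Sirt1, where it stands at 115 and 43 bases before the start. The copy nearest the start runs into a TGACG, so these matches share the letters TG (CACGTGACG). TGACG occurs in 17.8% of the windows and in those of 5 members (Sirt1, Sirt3, Sirt4, Nadsyn1 and Nampt). The full element TGACGTCA, found in 1.5% of windows, and the forkhead motif GTAAACA, found in 3.2%, occur in no window of the members on either strand. The GC box GGGCGG was found in windows of 7 members and in 32.7% of all windows. The 3 printed windows hold 66.0% to 79.2% G and C, against a median of 52.4% over all windows. The other windows of the members hold 53.2% (Sirt4) to 69.2% (Nmnat1). These are matches of letters, not measured binding.

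Sirt3, the main mitochondrial deacetylase, lies on chromosome 7 from 148049569 to 148068208 (ENSMUSG00000025486). It had 68.4, 71.3 and 69.5 CPM in fasted livers, against 55.4, 65.0 and 62.7 CPM in refed livers. All fasted libraries lay above all refed ones, yet the difference did not pass (69.7 ± 1.45 CPM in fasted and 61.0 ± 4.98 CPM in refed livers; SD, n = 3 each; log2 fold change 0.19, 95% interval -0.05 to 0.43, edgeR adjusted p = 0.14), and with library totals the log2 fold change was -0.021. Psmd13 and Ric8 overlap Sirt3 with 143% and 45.7% as many counts, and strand handling is not given, so its counts are uncertain.

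Sirt4, a mitochondrial sirtuin known as a brake on glutamate and fatty acid oxidation, fell. It lies on chromosome 5 from 115928019 to 115934734 (ENSMUSG00000029524). Its values were 2.31, 3.29 and 3.90 CPM in fasted livers, against 4.89, 5.65 and 6.10 CPM in refed livers. The groups did not overlap, with means of 3.16 ± 0.801 CPM in fasted and 5.55 ± 0.615 CPM in refed livers (SD, n = 3 each; log2 fold change -0.81, SE 0.22, edgeR adjusted p = 0.0125).

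Sirt5, the mitochondrial desuccinylase that acts on the urea cycle enzyme Cps1, lies on chromosome 13 from 43460882 to 43490571 (ENSMUSG00000054021). Its level was 9.48, 10.2 and 5.72 CPM in fasted livers, against 9.87, 9.87 and 9.85 CPM in refed livers. Fasted replicate 3 was the low library, while fasted replicates 1 and 2 lay on either side of the refed ones. The log2 fold change was -0.22 (95% interval -0.70 to 0.27, edgeR adjusted p = 0.398), and without fasted replicate 3 it was 0.0023.

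Sirt6, a chromatin deacetylase of glucose and lipid genes, lies on chromosome 10 from 81084530 to 81090542 (ENSMUSG00000034748) and was the least counted member, with 37, 27 and 37 counts in fasted libraries, against 46, 64 and 52 counts in refed libraries. In CPM this was 1.11, 0.838 and 1.13 in fasted livers, against 1.45, 1.80 and 1.48 in refed livers. The groups did not overlap, but the difference missed the threshold (log2 fold change -0.62, 95% interval -1.18 to -0.06, edgeR adjusted p = 0.0566). It passed with library totals and with upper quartile factors (edgeR adjusted p = 0.0213 and 0.0474, with 0.0213 to 0.278 as the span over 14 alternatives). The authors' deposited table gives Sirt6 an adjusted p of 0.0293. For the other 9 members, the authors' deposited table holds calls on the same side of 0.05 and in the same direction as here.

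Sirt2 and Sirt7, the sirtuins outside the 10 genes, did not pass. Of the 9 tested genes in the list of other sirtuins and sirtuin regulators, 3 rose and 1 fell, with a median log2 fold change of -0.12. Foxo1, a transcription factor of fasting, rose 2.18-fold (edgeR adjusted p = 0.000511), and its partner Ppargc1a, a coactivator of oxidative genes, rose 3.11-fold (edgeR adjusted p = 0.00518). Trp53, the tumour suppressor that Sirt1 deacetylates, fell to 2.22 ± 0.365 CPM in fasted livers, against 13.4 ± 1.51 CPM in refed livers (SD, n = 3 each; edgeR adjusted p = 1.76e-05). Without fasted replicate 3, 3 genes of this list fell (median -0.20), and without refed replicate 1, 2 fell (median -0.08). Without fasted replicate 1 the median was also -0.08. Without refed replicate 2, 2 rose.

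**Figure D4:**
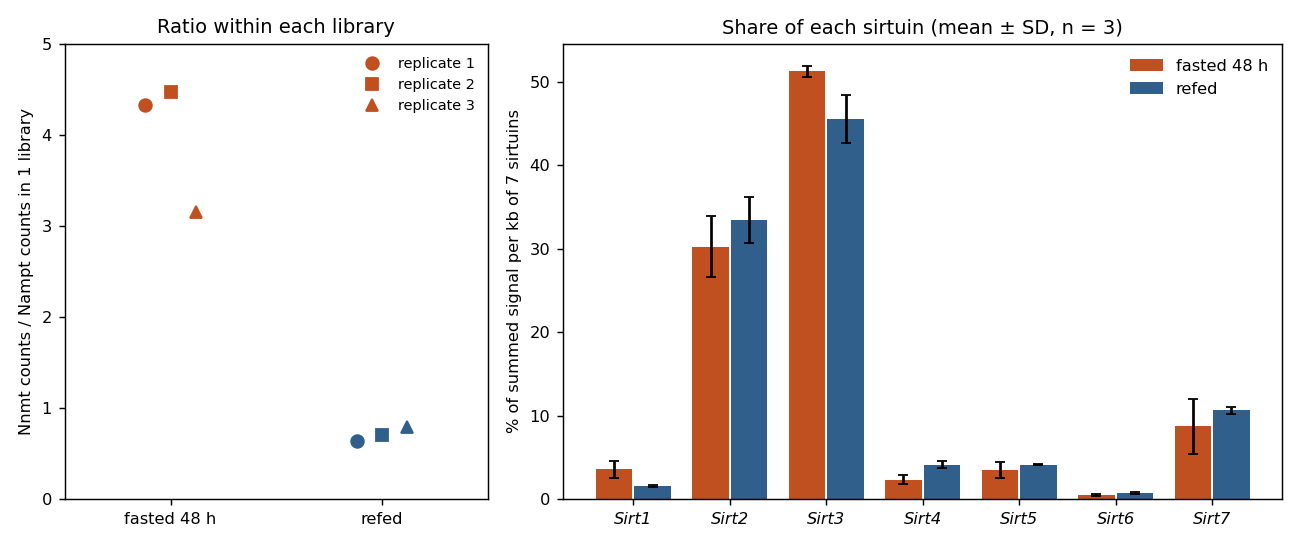
Left, counts of Nnmt divided by counts of Nampt in each library; right, each sirtuin's percent of the summed deposited signal per kb of the 7 sirtuins, mean ± SD over 3 libraries. The ratio is 3.16 to 4.47 in fasted and 0.636 to 0.792 in refed libraries, and with the authors' gene lengths Sirt3 holds 51.3% of the sirtuin signal in fasted and 45.5% in refed livers.

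The sirtuins' share of their summed level depends on the gene lengths used, and the counts of Sirt3 are uncertain for the overlap with Psmd13. In the deposited signal per kb, with the authors' length of 0.784 kb for Sirt3, Sirt3 held 51.3% ± 0.685 of their sum in fasted and 45.5% ± 2.89 in refed livers (SD, n = 3 each). Sirt2 followed with 30.2% ± 3.65 in fasted and 33.4% ± 2.73 in refed livers. Sirt1 held 2.66% to 4.68% in fasted livers, against 1.45% to 1.66% in refed livers. Sirt4 held 1.74% to 2.83% in fasted livers, against 3.68% to 4.51% in refed livers. With GENCODE M21 exon lengths (5.973 kb for Sirt3), an alternative chosen after seeing the data, Sirt3 held 36.8% ± 2.12 in fasted and 33.0% ± 2.30 in refed livers (SD, n = 3 each). Sirt2 then held 26.1% ± 4.45 in fasted and 29.0% ± 2.17 in refed livers, and the libraries of Sirt3 and Sirt2 overlapped in the refed group. On this scale Sirt1 held 10.2% to 16.2% in fasted livers, against 5.44% to 6.13% in refed livers, so its size among the sirtuins rests on the lengths. Its fasted libraries lay above its refed ones with either set of lengths.

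Across the 10 genes, the deposited signal per kb was led by Nnmt in fasted livers, at 25906 ± 1360.0, followed by Qprt at 7147 ± 557, Sirt3 at 3041 ± 60.3, Nadsyn1 at 1318 ± 63.4 and Nampt at 1078 ± 212 (SD, n = 3). Nmnat1, Sirt1, Sirt5 and Sirt4 came next, between 239.6 and 136, and Sirt6 was last at 27.4 ± 4.31. In refed livers Qprt led at 9996 ± 339, ahead of Nnmt at 4690.0 ± 437, and Sirt1 was second to last at 88.8 ± 5.36 (SD, n = 3). Neighbours whose libraries overlapped were Nadsyn1 and Nampt, and Nmnat1, Sirt1, Sirt5 and Sirt4 in turn, in fasted livers, and Sirt5 and Sirt4 in refed livers. The order rests on the authors' gene lengths, whose definition is not given. For Qprt that length is 0.484 kb, where the union of its exons in GENCODE M21 is 2.645 kb, and with such exon lengths, an alternative chosen after seeing the data, Nnmt led in both groups and the rank of 5 members in fasted and 7 in refed livers changed.

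Other NAD-consuming enzymes moved both ways. Of 18 tested genes of the PARP family, the NAD glycohydrolases Cd38 and Bst1, and Sarm1, 7 rose and 6 fell, with a median log2 fold change of 0.31. The median was 0.10 without fasted replicate 3 (5 higher, 5 lower) and 0.16 without refed replicate 2. Parp1, the main DNA damage PARP and a large user of nuclear NAD, fell to 16.9 ± 1.25 CPM in fasted livers, against 43.8 ± 0.690 CPM in refed livers (SD, n = 3 each; edgeR adjusted p = 2.52e-05). Parp11, a mono-ADP-ribosyltransferase, fell 6.94-fold (edgeR adjusted p = 4.79e-05). Tiparp, an ADP-ribosyltransferase induced by the aryl hydrocarbon receptor, rose to 37.0 ± 1.30 CPM in fasted livers, against 6.59 ± 2.17 CPM in refed livers (SD, n = 3 each; edgeR adjusted p = 7.20e-05). Parp4 rose 2.33-fold (edgeR adjusted p = 0.00111) and overlaps Gm16573, which has more counts than it. Cd38, Bst1 and Sarm1 did not pass. Without any 1 refed library, 4 genes of this list rose.

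Among 13 tested enzymes described as sirtuin substrates, 3 rose and 4 fell, with a median log2 fold change of 0.08. Cps1, which opens the urea cycle, rose 4.81-fold (edgeR adjusted p = 0.000139), and Mlycd, the malonyl-CoA decarboxylase described as a target of Sirt4, rose 2.14-fold (edgeR adjusted p = 0.000434). Otc, the next urea cycle enzyme and a target of Sirt3, fell 3.91-fold (edgeR adjusted p = 4.61e-05), and Glud1, glutamate dehydrogenase, which Sirt4 inhibits, fell 2.16-fold (edgeR adjusted p = 0.000524). Without fasted replicate 3, 7 rose and 4 fell with a median of 0.29, and without fasted replicate 1, 2 rose and 2 fell with a median of -0.11. The median also lay below 0 without fasted replicate 2 (-0.15) and without refed replicate 1 (-0.0043).

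Fasted replicate 3 differed from the other fasted libraries in several members. Relative to the mean of fasted replicates 1 and 2 it was 1.57-fold for Sirt1, 1.39-fold for Nampt and 0.580-fold for Sirt5. For Sirt4 it was 1.39-fold, at 3.90 CPM, but fasted replicates 1 and 2 also differed from each other, at 2.31 and 3.29 CPM. Fasted replicate 3 thus did not stand apart for Sirt4. This library also held the neutrophil and monocyte markers given beside Nampt. Markers of Kupffer cells and macrophages summed to 17.7 to 82.8 CPM in fasted and 58.6 to 78.5 CPM in refed livers (0 of 7 rose, 1 fell), and those of stellate cells and fibroblasts to 181 to 264 CPM in fasted and 105 to 125 CPM in refed livers (1 of 6 rose, 2 fell). Endothelial markers summed to 66.4 to 114 CPM in fasted and 50.2 to 92.2 CPM in refed livers (2 of 6 rose, 0 fell), and cholangiocyte markers to 15.8 to 27.4 CPM in fasted and 26.0 to 44.1 CPM in refed livers (2 of 5 rose, 1 fell). Lymphocyte markers summed to 0.6 to 1.37 CPM in fasted and 0.725 to 1.21 CPM in refed livers, and adipocyte markers to 0.0310 to 0.0609 CPM in fasted and 0 to 0.9 CPM in refed livers. None of either list passed the filter on low counts. No marker of any list was at 0 in all libraries. Of the 6 hepatocyte markers, 2 rose and 1 fell. The part of these cells in the values of Sirt1, Sirt4 and Sirt5 was not tested.

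By centred log2 CPM over the 6 libraries, among 8695 genes with a mean of at least 5 CPM, the genes most like Nampt were Mafg, Dda1 and Ankrd12, at Euclidean distances of 0.125, 0.138 and 0.172. Those most like Nnmt were Asl, Tymp and AI848100, at 0.256, 0.272 and 0.289. Those most like Sirt1 were 2510039O18Rik, Rela and Dirc2, at 0.105, 0.124 and 0.14. These distances describe 6 libraries in 2 groups, and many genes share so simple a pattern.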

How the data were processed

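Liver RNA of 6 mouse samples was sequenced. Deposited were, per the file headers, gene counts before scaling, a normalized signal by itself and per kb of gene, the authors' log2 ratio of fasted to refed, and its p-value and adjusted p-value. The submitters' processing notes list, without roles, mm9, DESeq2 1.0.19, HTSeq 0.5.4p3, Bowtie2 2.1.0 and TopHat2 2.0.10. How strand was handled is not given in the sources.

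On the deposited counts, edgeR 4.0.16 (R 4.3.3) was run with filterByExpr at a minimum count of 10 (13248 genes kept, 10383 removed), TMM factors, robust glmQLFit and glmQLFTest with the group as the only term, and Benjamini-Hochberg adjustment over the genes kept. The fit was checked on simulated counts. CPM use TMM-scaled totals. Members and lists were chosen with earlier results of these data known, so no list was tested as a set and none is independent evidence. From each list the text names up to 2 called genes per direction with the lowest p. Any other list gene is named for its place in the pathway. Alternatives were other scalings, filters and tools (DESeq2 1.42.0, limma 3.58.1 voom, glmTreat), a replicate block and each library left out. No library pair agreed within sampling noise.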

Additional observations from a re-analysis of the deposited data

How the results depend on the processing

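The calls of the 6 changed members held, in direction and side of the threshold, under at least 14 of 15 alternatives (13 of 14 for Sirt4, which a mean of at least 5 CPM removes together with Sirt6). The exception was glmTreat against a log2 change of 0.5, which kept Nnmt and Sirt1 and left 0 members lower; over all genes it called 2338 higher and 2591 lower. With library totals the median of all genes lay at -0.21 and that of the members at -0.32, while at a mean of at least 5 CPM the members' median was 0.071. For Nampt the log2 fold change was -0.21 with library totals, the lowest over the alternatives, and 0.013 with RLE factors. It was 0.10 without refed replicate 1, -0.17 without fasted replicate 3, 0.11 without fasted replicate 1 and 0.064 without fasted replicate 2. Sirt3 came to -0.021 with library totals, and leaving out a library moved Sirt5 between -0.37 (fasted replicate 2) and 0.0023 (fasted replicate 3). For Nampt, Sirt3 and Sirt5 no alternative passed, and the cause of these turns was not tested. With 1 library left out, all genes called ranged from 3150 to 4281 higher and from 3411 to 4431 lower, the members' median from -0.16 to -0.06, the log2 difference of the Nnmt to Nampt ratio from 2.38 to 2.64 and that of the Nampt to Qprt ratio from 0.28 to 0.61. The replicate numbers are not said to pair the samples. Deviations of same-numbered libraries correlated at -0.016, -0.062 and -0.081, and no fasted library correlated best with its own number. With 3 libraries per group, such correlations cannot exclude a pairing. With the replicate block edgeR called 3558 higher and 3782 lower genes, and 3 members higher and 3 lower. Depth limits Sirt6 and Nmnat2, with 263 and 48 counts in all.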
